A study of Homo sapiens with 4 samples.

Results

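CBX6 and ATXN7L3 are 2 genes for chromatin regulators whose mRNAs were bound by F-MARF1ΔNYN, a FLAG-tagged form of the RNA-binding protein MARF1 that lacks its NYN nuclease domain. They were chosen from the binding data themselves: the members are every interval of the final list assigned to either gene and every peak of either replicate that overlapped either gene body. These were 15 of the 282 intervals shared by both replicates, 13 of the 719 peaks of replicate 1 and 15 of the 534 peaks of replicate 2. Because peaks chose the members, their numbers and enrichments are given as a description and no test was made on them. Across the series, 35.9% of the replicate 1 peaks and 46.8% of the replicate 2 peaks overlapped a peak of the other replicate. A shared interval lay in the body of 0.570% of the 20176 annotated protein-coding genes, a replicate 1 peak in 1.93% and a replicate 2 peak in 1.22%.

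The data are iCLIP libraries, in which ultraviolet light links a protein to the RNA it touches, the protein is precipitated with an antibody, and the attached RNA fragments are sequenced. All 4 libraries came from HEK293-Trex cells, a line derived from human embryonic kidney, irradiated at 254 nm with 400 mJ per square centimetre and precipitated with FLAG antibody. One group of 2 libraries came from cells in which F-MARF1ΔNYN was induced from a doxycycline-dependent transgene with 100 ng/mL for 12 hours, so the bound protein was an introduced form without its nuclease domain. The other group of 2 libraries came from HEK293 cells without a FLAG-tagged protein, for which the records do not state whether doxycycline was given.

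CBX6 is a subunit of Polycomb repressive complex PRC1 and carries a chromodomain, a fold with which CBX proteins of this family read the trimethylated histone H3 left by the complex PRC2. ATXN7L3 is an adaptor of the deubiquitinase module of SAGA, a coactivator complex, and is needed for the module's enzyme USP22 to remove ubiquitin from histones H2A and H2B. PRC1 places ubiquitin on histone H2A, so CBX6 and ATXN7L3 both belong to complexes that act on histone ubiquitin, which was not measured here.

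Both genes lie on the minus strand of the hg19 (GRCh37) genome, and the 3'UTR is the untranslated stretch of the mRNA between the stop codon and its 3' end. CBX6 (ENSG00000183741) spans chr22:39257427-39268254, and its longest annotated 3'UTR, of 4787 nt, occupies 39257427 to 39262213. ATXN7L3 (ENSG00000087152) spans chr17:42269173-42277481, with a 3'UTR of 2458 nt at 42269173 to 42271630. The summit of a peak is the base with the most reads after each read was extended to 100 bp, so it places binding within a window and not at a single nucleotide. In 3 CBX6 intervals and 2 ATXN7L3 intervals the summits of both replicates lay within 25 nt of each other. The 30 nt around the midpoint of these summits are shown because they are the stretches on which the replicates converged, read from the GRCh37 genome on the mRNA strand, 5′ to 3′, with the bases from one replicate's summit to the other's in capitals. They are chr22:39260381-39260410, chr22:39260101-39260130 and chr22:39258417-39258446 in CBX6, and chr17:42270271-42270300 and chr17:42269392-42269421 in ATXN7L3, in the order of the mRNA.
CBX6 at 1819 nt from the stop codon: gtgaccacCTGGGTGCCAGTTACaggtgtt
CBX6 at 2099 nt: tggcAATGTCAGGATGGGGCGGAGGCCtgg
CBX6 at 3783 nt: gcctctttgggacggGgatggtttgaggaa
ATXN7L3 at 1346 nt: tgactgacatgGGTGGAGGTgaccctgagc
ATXN7L3 at 2225 nt: atttccatgGCCGGTGGCTTTTCcttccat
The 5 stretches were 50 to 66.7% G and C, and in the third of them both summits fell on the same base.

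In CBX6, a CBX gene of the Polycomb family, replicate 1 had 10 peaks and replicate 2 had 12. All of these peaks lay in the 3'UTR, which makes up 44.2% of the gene's 10828 bp and 59.9% of its exon bases, and no peak of either replicate touched an intron, the coding sequence or the 5'UTR. By the authors' Homer annotation, 11 of the 12 CBX6 intervals (91.7%) were 3'UTR and 1 a transcription termination site, against 187 of 282 (66.3%) and 12 over the series. The 10 replicate 1 peaks and 9 of the 12 replicate 2 peaks overlapped a peak of the other replicate, and together they formed the 12 shared intervals. The next peaks on the chromosome were 377698 bp from the gene in replicate 1 and 919833 bp in replicate 2. The called binding of F-MARF1ΔNYN at CBX6 was a series of separate stretches of the 3'UTR, with no peak elsewhere in the gene. With the stricter demand that 50% of each peak overlap the other, the count of shared intervals in CBX6 was 7.

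Peaks covered 56.6% of the CBX6 3'UTR in replicate 1 and 64.1% in replicate 2, the shared intervals covered 44.2% (2116 nt), and the peaks of either replicate together covered 76.5%. Consecutive summits were a median of 383 nt apart in replicate 1 (range 142 to 886 nt) and 346 nt apart in replicate 2 (range 236 to 711 nt). The first peak began after 500 nt in replicate 1 and after 312 nt in replicate 2, and the last peak ended 9 and 29 nt before the annotated end of the mRNA. In both replicates, peaks were spread from there to near the end of the 3'UTR, with free stretches between them. The 312 nt next to the stop codon were free in both replicates and were the longest free stretch of replicate 2. The longest free stretch of replicate 1, at 971 to 1593 nt from the stop codon, held a replicate 2 peak with its summit at 1115 nt.

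**Figure D1:**
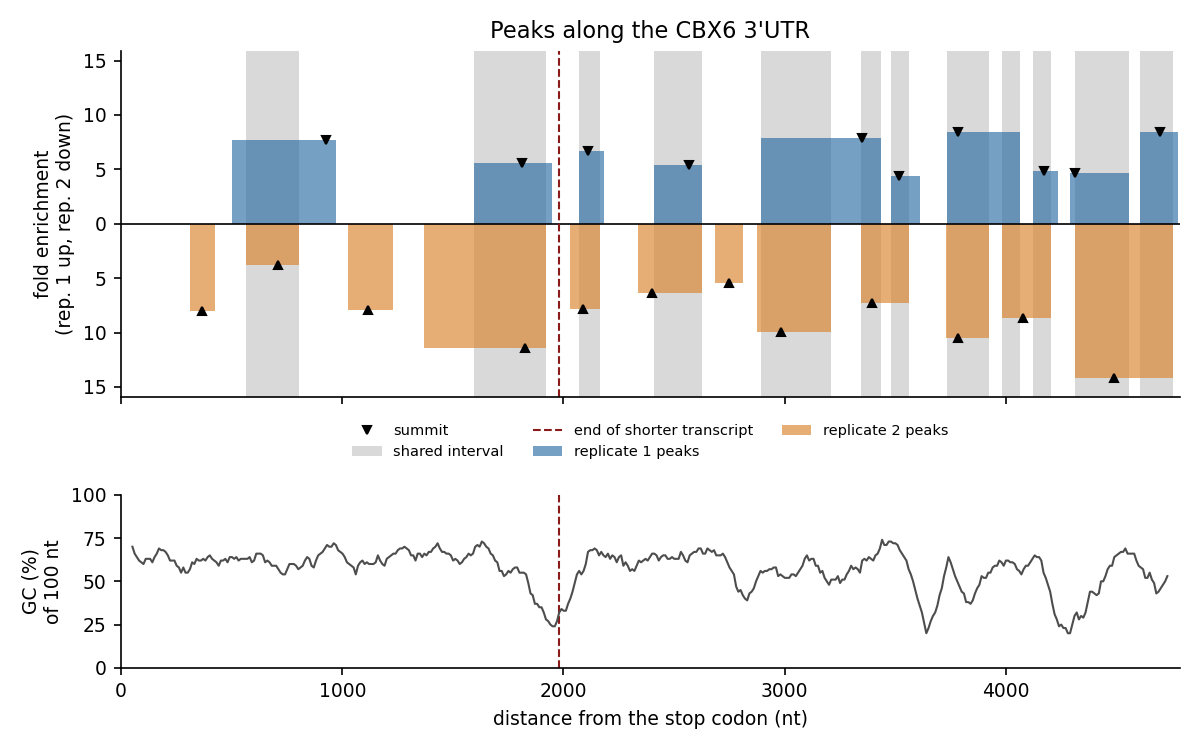
Peaks along the CBX6 3'UTR. Upper panel, fold enrichment of each peak (bars, width as called; replicate 1 upwards, replicate 2 downwards) against the distance from the stop codon in nt, with summits as triangles, the 12 shared intervals in grey and the annotated end of the shorter transcript at 1980 nt dashed. Lower panel, GC percent of 100-nt windows in steps of 10 nt. Of the shared intervals, 10 lie beyond the dashed line.

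The shorter annotated CBX6 transcript, CBX6-201, ends 1980 nt after the stop codon, and the longer one, CBX6-202, adds 2807 nt. Of the 12 shared intervals, 10 lay in the stretch that only the longer transcript holds and 2 in the stretch that both hold. The replicate 1 peaks were divided into 8 and 2, and the replicate 2 peaks into 8 and 4. All 3 of the replicate 2 peaks without a counterpart lay at 2747 nt or closer to the stop codon by their summits, namely at 365, 1115 and 2747 nt. Peaks beyond 1980 nt can be placed on the longer annotated CBX6 transcript only. For the peaks within the first 1980 nt, which belong to both, the transcripts cannot be told apart.

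Fold enrichment is the ratio of reads at the summit to the local background, with 1 added to each, as the authors' peak caller gives it. The number of reads behind it was solved from the ratio and its Poisson p-value. The brackets give exact Poisson 95% intervals of the reads, which cover counting error only. The highest CBX6 fold enrichment in replicate 1 was 8.44, from 21 reads (13.0 to 32.1), and was reached by 2 peaks with their summits at 3783 and 4698 nt. The highest in replicate 2 was 14.2, from 25 reads (16.2 to 36.9), at a summit 4490 nt from the stop codon. The highest ratio of each replicate was found in the distal part of the CBX6 3'UTR, beyond the end of the shorter transcript.

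At 3783 nt from the stop codon, where the summits coincided, CBX6 had 21 reads (13.0 to 32.1) and a fold enrichment of 8.44 in replicate 1 (q = 2.86e-12), and 32 reads (21.9 to 45.2) and 10.5 in replicate 2 (q = 4.99e-20). The q-value is the p-value after the peak caller's adjustment for multiple testing. The local background allowed at most 2 control reads in 100 bp in each replicate. This was the CBX6 peak with the most reads in replicate 2, and it tied for the most in replicate 1.

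At the other sites with a printed sequence, CBX6 showed the same order of replicates. At 1819 nt there were 18 reads (10.7 to 28.4) and a fold enrichment of 5.57 in replicate 1, against 29 reads (19.4 to 41.6) and 11.4 in replicate 2. At 2099 nt there were 17 reads (9.90 to 27.2) and 6.70 in replicate 1, against 18 reads (10.7 to 28.4) and 7.87 in replicate 2. The counting intervals of the replicates overlapped at these 3 sites. With library totals unknown, the difference in reads between replicates was not tested.

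Summits in the remaining CBX6 intervals were further apart. The distance between the replicates' summits had a median of 144 nt over the 12 intervals (range 0 to 365 nt), against a median of 49.0 nt over all 282 shared intervals, and it was within 25 nt in 25% of the CBX6 intervals against 36.5% of all. The CBX6 intervals were also longer, with a median of 172 bp (range 81 to 327) against 120 bp. A long peak is given a single summit, and neighbouring intervals could share a peak: the 539-bp replicate 1 peak at 2896 to 3434 nt overlapped a pair of replicate 2 peaks, with summits at 2983 and 3395 nt. Beside the series, the CBX6 intervals were longer and their summits further apart.

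The weakest CBX6 peaks bounded the range. In replicate 1, the peak with its summit at 3516 nt had 8 reads (3.45 to 15.8), a fold enrichment of 4.40 and q = 0.021, and in replicate 2 the peak at 708 nt had 15 reads (8.40 to 24.7), 3.81 and q = 0.0137. These were the members closest to the threshold of 0.05, and no peak beyond it is listed. Each was matched by a stronger peak in the other replicate, with q = 1.21e-07 and q = 3.29e-10.

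Fold enrichment of the CBX6 peaks ran from 4.40 to 8.44 around a median of 6.14 in replicate 1, and from 3.81 to 14.2 around a median of 7.97 in replicate 2. Over the shared peaks alone, the CBX6 median was 6.14 in replicate 1 (10 peaks) and 8.62 in replicate 2 (9 peaks), against 7.21 and 8.15 over the shared peaks of the series, and 4 of 10 and 5 of 9 CBX6 peaks lay above these. The shared CBX6 peaks held more reads than most, with medians of 17.0 (range 8 to 21) and 19.0 (range 15 to 32) against 12.0 and 14.5, and 8 of 10 and 9 of 9 lay above these. The local background was also higher at the shared CBX6 peaks, at medians of 1.61 and 1.30 reads against 0.803 and 0.700, and allowed at most 3 control reads at any CBX6 summit in either replicate. Compared with the shared peaks of the series, CBX6 had more reads and a higher background in both replicates, and a median ratio that was lower in replicate 1 and higher in replicate 2. The lists hold no expression values, so the level of the CBX6 mRNA is not known from them.

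**Figure D2:**
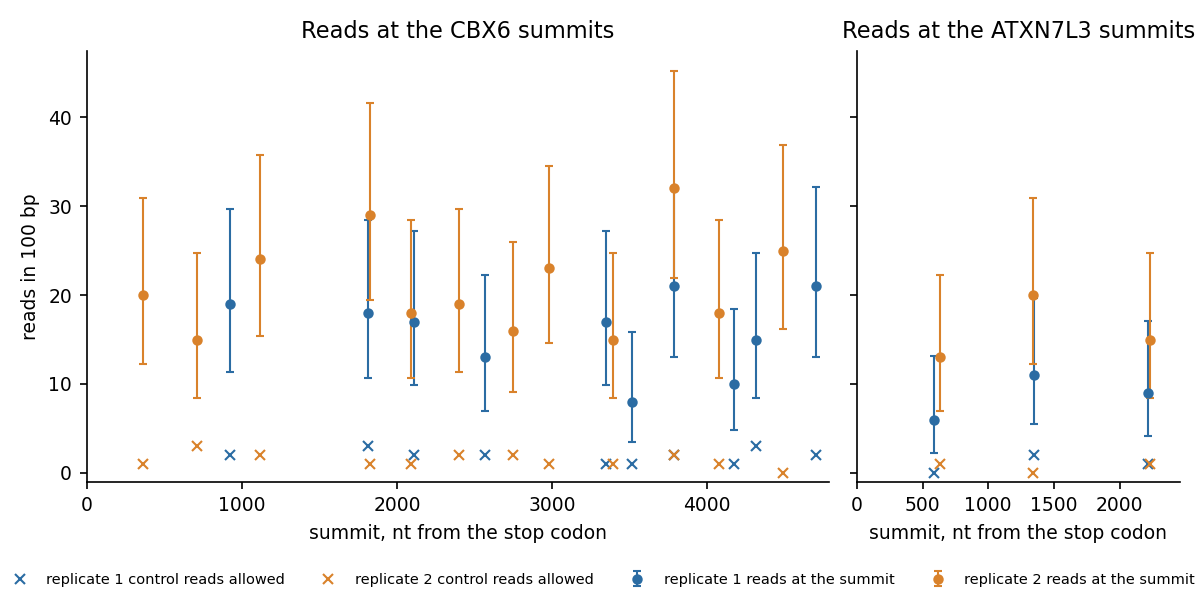
Reads in 100 bp at each CBX6 (left) and ATXN7L3 (right) summit against the distance of the summit from the stop codon in nt. Circles are reads of the F-MARF1ΔNYN library with exact Poisson 95% intervals, crosses the largest number of control reads that the local background allows, blue replicate 1 and orange replicate 2. Circles lie between 6 and 32 reads and crosses between 0 and 3.

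By number of shared intervals, CBX6 ranked second of the 117 gene symbols in the final list, level with 1 other. LNPEP, a transmembrane aminopeptidase, had 13 intervals, and KIAA0430, the older symbol of MARF1 itself, had 12 as CBX6 did. The 6 intervals listed under C16orf45 lay among those of KIAA0430 on the genome, with 0% of the C16orf45 3'UTR covered. The count for MARF1 therefore rests on the listed symbols and may be too low. The introduced transgene also encodes MARF1, and its part in these intervals was not tested. The median gene had 1 interval, and 61 genes had exactly 1. Per length of 3'UTR, CBX6 ranked first of 102 genes, with 2.51 intervals per kb against a median of 0.426. Next came PGAM4 with 2.16 and ADCY6 with 2.09, both named after their values were seen, and SUZ12, a Polycomb gene, with 1.97, while LNPEP had 1.45 and MARF1 0.434. The LNPEP 3'UTR was 8980 nt long, and most of the MARF1 intervals lay outside the 3'UTR, whereas the CBX6 3'UTR was 29th in length. Each overlapping pair of peaks counts as 1 interval, so the ranks by number and per kb also depend on how peaks were divided. The 12 CBX6 intervals came from 10 replicate 1 peaks and 9 replicate 2 peaks. NOTCH2, with 1 interval over 84.5% of its 3'UTR, had 0.266 per kb. By the share of the 3'UTR covered, CBX6 was 5th, at 44.2% against a median of 5.53%. The rank by number was 4 in either replicate alone, counted over gene bodies.

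**Figure D3:**
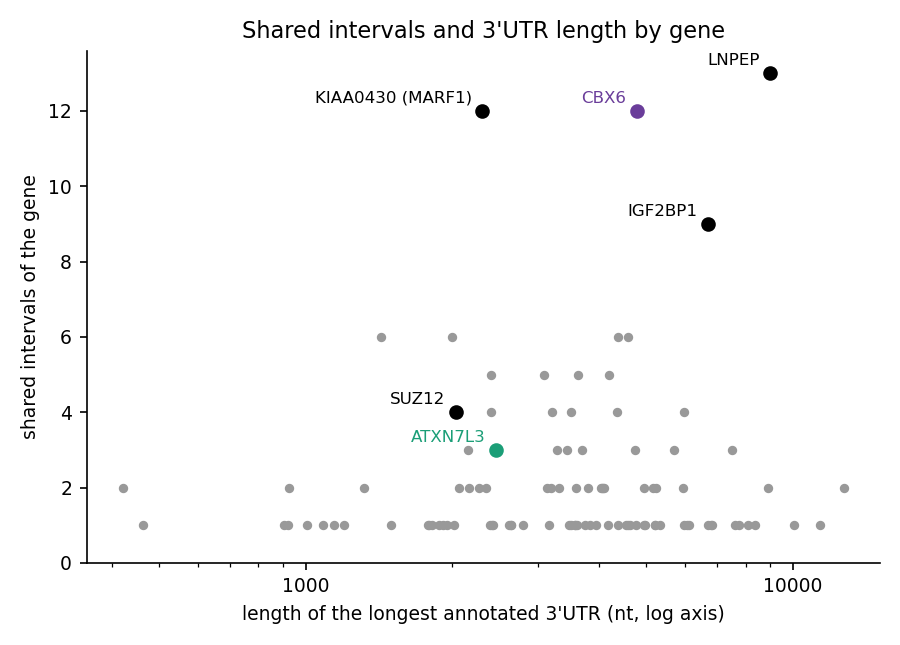
Number of shared intervals per gene against the length of its longest annotated 3'UTR in nt (log axis), for the 102 genes of the final list with a 3'UTR. CBX6, with 12 intervals in 4787 nt, stands at the top with LNPEP (13 in 8980 nt), and ATXN7L3 has 3 in 2458 nt. KIAA0430, or MARF1, also has 12 intervals under that symbol. Most of them lie outside its 3'UTR of 2306 nt, which holds 0.434 per kb.

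In ATXN7L3, the adaptor of the SAGA deubiquitinase module, each replicate had 3 peaks, all 3 overlapped a peak of the other replicate, and they formed 3 shared intervals. All lay in the 3'UTR by the GENCODE annotation, while the authors' Homer annotation called 1 of them 3'UTR and 2 transcription termination sites. At a q below 0.001 in both replicates, 1 of the ATXN7L3 intervals was left. The shared intervals covered 18.3% of the ATXN7L3 3'UTR (451 nt), the peaks 24.6% in replicate 1 and 27.5% in replicate 2. From the stop codon, they lay at 586 to 612 nt, 1237 to 1560 nt and 2138 to 2237 nt, with a median of 816 nt between the summits of replicate 1 and 800 nt in replicate 2. As in CBX6, the called ATXN7L3 peaks were separate and lay in the 3'UTR, here at a wider spacing.

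The annotation around ATXN7L3 holds genes on the other strand, and peaks of these lists carry no strand. TMUB2 runs into the 3' end of ATXN7L3 by 125 bp and ATXN7L3-AS1 overlaps the gene over 1577 bp, and 0 peaks lay in either overlap. No annotated gene overlaps CBX6. By position, each peak of the members fell in 1 annotated gene.

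By fold enrichment, the middle ATXN7L3 interval differed most between replicates. In replicate 1 it had 11 reads (5.49 to 19.7), a fold enrichment of 4.60 and q = 0.00383, over at most 2 control reads. In replicate 2 it had 20 reads (12.2 to 30.9), 13.3 and q = 2.71e-19, over 0 control reads, which placed it 24th of 534 peaks by fold enrichment. The counting intervals of the reads overlapped, and the local background was 1.61 reads in replicate 1 and 0.50 in replicate 2. The summits lay 8 nt apart, at the first ATXN7L3 sequence shown above.

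The interval nearest to the 3' end of ATXN7L3 had 9 reads (4.12 to 17.1) and a fold enrichment of 5.55 in replicate 1, and 15 reads (8.40 to 24.7) and 7.63 in replicate 2. Its summits lay 13 nt apart and 239 and 226 nt from the end of the mRNA. The interval nearest to the stop codon had 6 reads (2.2 to 13.1) and 5.17 in replicate 1 (q = 0.00279), and 13 reads (6.92 to 22.2) and 6.36 in replicate 2 (q = 1.24e-05). Here the peaks overlapped by only 27 bp, with summits 45 nt apart. This proximal interval had the fewest reads of ATXN7L3 in each replicate and the smallest overlap.

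All 3 ATXN7L3 peaks of replicate 1 lay below the median of the shared peaks, both in fold enrichment and in reads. In replicate 2, 1 of 3 lay above the median in fold enrichment and 2 of 3 in reads. The order of the ATXN7L3 intervals by fold enrichment also differed, with the middle interval lowest in replicate 1 and highest in replicate 2. Fold enrichment was higher in replicate 2 than in replicate 1 at 3 of 3 ATXN7L3 intervals and at 10 of 12 CBX6 intervals, and so it was at 188 of all 282 shared intervals. The members followed the series in this, whose median fold enrichment was 6.12 over the replicate 1 peaks and 7.50 over the replicate 2 peaks.

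**Figure D4:**
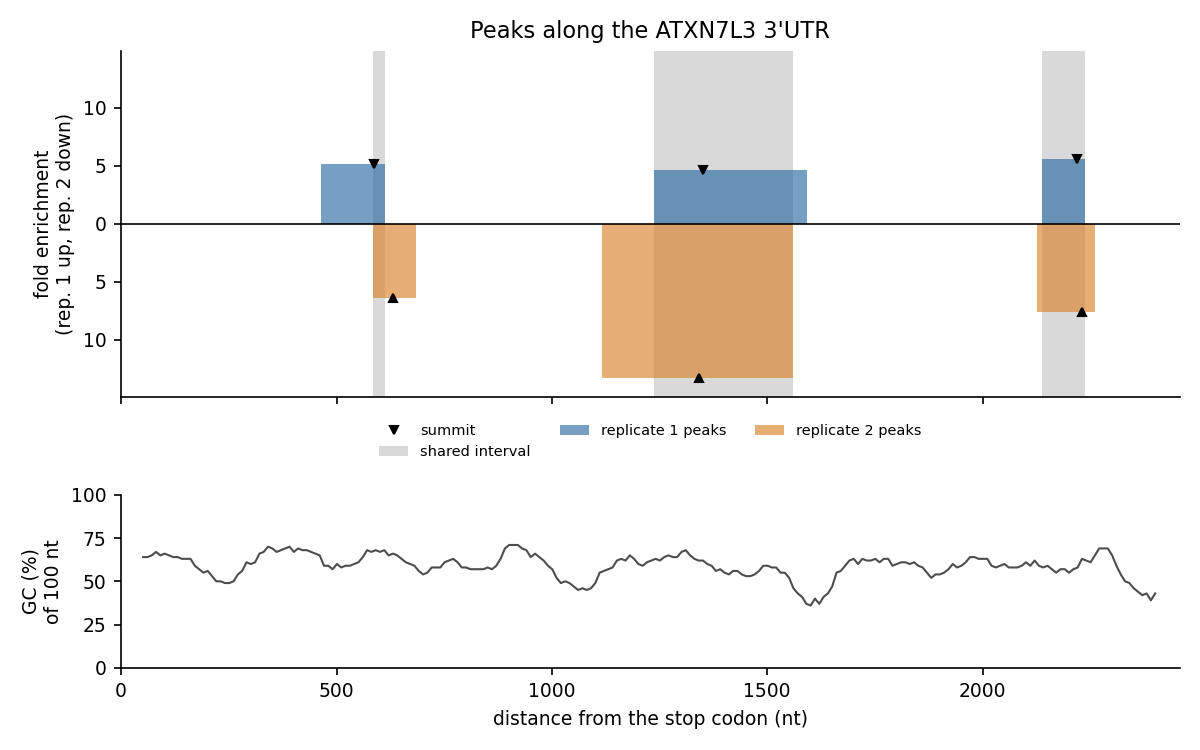
Peaks along the ATXN7L3 3'UTR, drawn as for CBX6. Upper panel, fold enrichment of each peak (bars; replicate 1 upwards, replicate 2 downwards) against the distance from the stop codon in nt, with summits as triangles and the 3 shared intervals in grey. Lower panel, GC percent of 100-nt windows. The middle interval has 4.60 in replicate 1 and 13.3 in replicate 2.

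**Figure D5:**
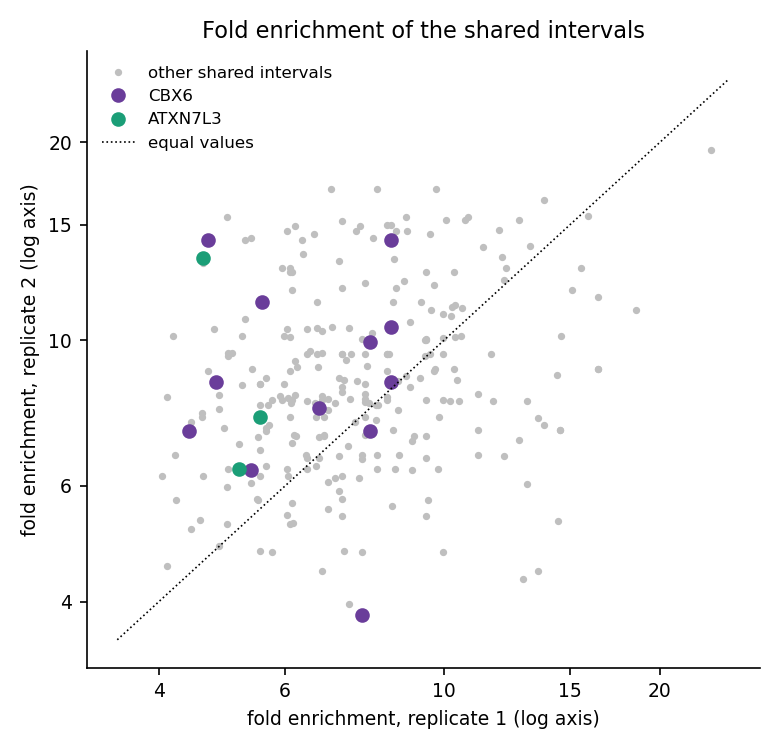
Fold enrichment of the 282 shared intervals in replicate 2 against replicate 1 (log axes), with the 12 CBX6 and 3 ATXN7L3 intervals coloured and equal values dotted. Points above the dotted line are higher in replicate 2, as were 10 CBX6 and 3 ATXN7L3 intervals.

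CBX6 and ATXN7L3 shared a feature that the choice of members did not use, the base composition of their 3'UTRs. G and C made up 57.1% of the CBX6 3'UTR, the 4th highest of the 102 genes, and 58.6% of the ATXN7L3 3'UTR, the 3rd highest, against a median of 38.5%. Within CBX6, the shared intervals had 57.6% G and C and the rest of the 3'UTR 56.8%. In ATXN7L3, the values were 59.6% inside and 58.3% outside. The high share of G and C belonged to the whole 3'UTRs, with little difference between the inside and the outside of the shared intervals, where part of the outside lay under a peak of 1 replicate. Of the single bases, T differed most between the inside and the outside of the CBX6 intervals (23.6% and 24.4%), and C most in ATXN7L3 (30.4% and 28.3%).

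The same held at the summits. The 100 nt at the CBX6 summits had a median of 57.0% G and C in replicate 1 (10 windows from 30 to 71.0%) and 59.0% in replicate 2 (12 windows from 50 to 66.0%), against 61.0% over all 100-nt windows of the CBX6 3'UTR. At the ATXN7L3 summits the median was 63.0% in each replicate, against 59.0% over the windows of its 3'UTR. The summits of shared peaks over the series had a median of 44.5% in replicate 1, for 224 of 258 peaks whose listed gene gave a strand. The summit windows of CBX6 and ATXN7L3 were richer in G and C than those of the median shared peak, as their whole 3'UTRs were.

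Folding was predicted for the same windows. The median minimum free energy of the 100 nt at the CBX6 summits was -36.9 kcal/mol in replicate 1 and -32.3 kcal/mol in replicate 2, and that of all windows of the CBX6 3'UTR was -33.2 kcal/mol. For ATXN7L3, the medians were -38.3 and -35.8 kcal/mol at the summits against -34.3 kcal/mol over its windows. Shared peaks over the series had a median of -21.8 kcal/mol. Folding at the CBX6 summits lay on both sides of that of the gene's own 3'UTR, and the part of base composition in these values was not tested.

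Of the short motifs searched on the mRNA strand, GGGG was the commonest in both genes. It was present in 7 of 10 CBX6 summit windows of replicate 1 (70.0%) and 8 of 12 of replicate 2 (66.7%), against 63.5% of all 100-nt windows of that 3'UTR and 28.1% of the summit windows of the series. In ATXN7L3 it was present in 2 of 3 summit windows of each replicate (66.7%), against 72.9% of the windows of its 3'UTR. TTTTT was in 2 CBX6 windows of replicate 1 and 0 of replicate 2, against 15.4% of the CBX6 windows, and in 0 of the ATXN7L3 summit windows, against 9.75%. ATTTA was in 2 and 1 CBX6 summit windows, against 5.54% of the windows, and in none in ATXN7L3, against 8.05%. Of the summit windows of the series, 18.3% held TTTTT and 15.6% held ATTTA. GGGG was present at the summits at about the rate of the 3'UTRs that held it, and the summit windows with the other motifs numbered at most 2. Over the whole 3'UTR, with overlapping matches counted, 6 of 41 TTTTT matches in CBX6 lay inside the shared intervals, which cover 44.2% of it, and 0 of 5 in ATXN7L3. For GGGG the counts were 33 of 86 in CBX6 and 7 of 38 in ATXN7L3, and for ATTTA they were 0 of 3 and 0 of 2. Overlapping matches of 1 run are not independent, and the difference between these motifs was not tested.

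TGTANATA, the core of Pumilio binding sites, had 0 matches in the CBX6 3'UTR and 1 in that of ATXN7L3, outside the intervals, where it was in 0.847% of all 100-nt windows, against 3.57% of the summit windows of the series. AATAAA, the usual polyadenylation signal, had 1 match in the CBX6 3'UTR, 4721 nt from the stop codon, inside the last shared interval, whose replicate 1 summit lay at 4698 nt. In ATXN7L3 it had 2 matches, at 1640 and 2435 nt, both outside the intervals. These letters were in 1.28% of the windows of the CBX6 3'UTR, 4.66% of those of ATXN7L3 and 6.70% of the summit windows of the series. The last CBX6 interval spanned the match nearest to the end of the mRNA, while the last ATXN7L3 interval ended before it.

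Copies of whole intervals in other genes were sought among annotated transcripts. None of the 12 CBX6 intervals and none of the 2 ATXN7L3 intervals of at least 30 bp matched a transcript of another gene at 95% identity over 90% of the length. The longest partial match covered 59.3% of a CBX6 interval and 31.0% of an ATXN7L3 interval. The 27-bp interval of ATXN7L3 was too short to search, and shorter matches, of the length of a read, were not assessed.

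The lists of other genes in the complexes around CBX6 and ATXN7L3 held a few genes with peaks. Of 70 genes in 7 lists of Polycomb, SAGA and histone ubiquitin genes, 3 had a shared interval, CBX6, ATXN7L3 and SUZ12. A peak in each replicate, overlapping or not, was present in 5, and a peak in either replicate in 10. Without CBX6 and ATXN7L3, 1 of 68 had a shared interval (1.47%, against 0.570% of all protein-coding genes), 7 had a replicate 1 peak (10.3% against 1.93%) and 4 a replicate 2 peak (5.88% against 1.22%). Most of the listed genes had no peak, while the shares with one were above those over all protein-coding genes. The latter were counted whether or not these cells express them. Without expression values, the shares could not be compared among genes of like expression. Without CBX6 and ATXN7L3, the share with a shared interval rested on SUZ12 alone. These lists are small and were chosen with earlier results of these data known, and CBX6 and ATXN7L3 were themselves chosen for their peaks. The counts therefore describe the lists and were not tested.

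Among the 5 CBX genes of the Polycomb family, CBX6 was the only gene with a peak in either replicate, and the 3 HP1 genes, which read a different histone mark, had none. Of the 15 other PRC1 genes, BMI1, a partner of the ubiquitin ligase, had 1 peak in replicate 1 (fold enrichment 8.77), and PHC3, a Polyhomeotic subunit, had 2 in replicate 1 (7.19 and 4.99) and 1 in replicate 2 (5.59) at other positions. Of the PRC1 genes, CBX6 alone had a shared interval. Of the 11 PRC2 genes, SUZ12, a core subunit of the complex that writes the mark which CBX proteins read, had 3 peaks in each replicate and 4 shared intervals. Its peaks ranged from 6.70 to 9.45 in replicate 1 and from 6.62 to 11.4 in replicate 2, in a 3'UTR of 29.7% G and C. AEBP2, an accessory subunit of PRC2, had 1 peak in replicate 1 (4.99).

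Of the 9 genes of the SAGA deubiquitinase module and its relatives, ATXN7L3 was the only gene with a shared interval. USP22, the enzyme that ATXN7L3 activates, had 1 peak in replicate 2 (5.72, from 17 reads) and none in replicate 1. ATXN7, which anchors the module to SAGA, had 2 peaks in replicate 1 (6.05 and 6.16, from 7 and 6 reads) and none in replicate 2. Of the 18 other SAGA genes, TRRAP, a scaffold that binds activators, had 1 peak in replicate 1, in a coding exon (4.43, from 4 reads). Of the 9 other enzymes of histone ubiquitin, ASXL2, a cofactor of the deubiquitinase BAP1, had 1 peak in each replicate at different positions (3.70 and 6.38). Besides ATXN7L3, the genes of the module and of SAGA with a peak were USP22, ATXN7 and TRRAP, each in a single replicate, and the others had none.

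Likeness to the members was measured over the 26 genes with at least 3 shared intervals and a 3'UTR, as the distance over the logarithms of the number of intervals, the 3'UTR length and the median fold enrichment in each replicate, each divided by its standard deviation. Nearest to CBX6 were IGF2BP1, an mRNA-binding protein (distance 1.69, with 9 intervals in 6701 nt), KLHL15, an adaptor of a ubiquitin ligase (1.95), and TXLNA, a syntaxin-binding protein (2.20), against a median of 3.34. Nearest to ATXN7L3 were LARP1, a regulator of mRNAs of the translation machinery (distance 1.41, with 4 intervals in 3509 nt), KLHL15 (1.92) and TXLNA (1.99), against a median of 2.99. The 12 intervals of CBX6 stood above the number in each of its 3 nearest genes, and KLHL15 and TXLNA, near to both members, had more of their 3'UTR covered, at 88.9% and 74.6%.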

How the data were processed

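Peaks at CBX6 and ATXN7L3 were taken from the deposited lists. The submitters' notes name Trimmomatic 0.32, STAR 2.3.0e, SAMtools 1.9, Picard 2.10.7, MACS2 2.1.1 and HOMER 4.10. The authors aligned reads of 50 bp to hg19 and dropped those with more than 10 locations. Each F-MARF1ΔNYN library was compared with the control of the same number, with reads extended to 100 bp and an FDR threshold of 0.05. The deposited lists hold a score, the fold enrichment as a linear ratio to local background, and −log10 p and −log10 q values. Counts per library are not given, so library totals are unknown. Of the columns that belong to samples, 0 went unused.

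Shared intervals were recomputed at an overlap of 1 bp and matched the final list. Reads at the summit were solved from the fold enrichment, (reads + 1) / (background + 1), and the Poisson p-value, with replicate 2 reads weighted by 0.9507 and replicate 1 control reads by 0.8035, a step tested on simulated data. This solved 719 of 719 and 530 of 534 peaks, 13 and 16 of them with several solutions, where the closest was kept, as for the unsolved peaks. Each CBX6 and ATXN7L3 peak had 1 solution. Control reads are the largest number that the background allows. Peaks were placed on GENCODE release 44 by their middle base, 3 older symbols were matched through RefSeq synonyms, folding was predicted with ViennaRNA 2.7.2, and copies were sought with blastn 2.17.0. Sequences came from the GRCh37 genome with samtools 1.23.1. Genes named besides the members are list genes with a peak and genes with as many intervals as CBX6. The 3 genes most like each member and overlapping genes are also named. PGAM4, ADCY6, C16orf45 and NOTCH2 were added after their values were seen. The members and lists were chosen with earlier results of these data known. Python 3.11.15, numpy 2.4.6, pandas 2.3.3, scipy 1.17.1 and matplotlib 3.10.9 were used.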

Additional observations from a re-analysis of the deposited data

How the results depend on the processing

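Of 36 alternatives, 17 left the value within 1.5 times the count or within the spread of the replicates, and 19 moved it. No paired analysis was possible because the files hold no counts per library, beyond the authors' peak calling of each F-MARF1ΔNYN library against the control of the same number. A reciprocal overlap of 50% left 7 shared intervals in CBX6, and a q below 0.001 in both replicates left 1 in ATXN7L3. With each replicate alone, CBX6 had 10 to 12 peaks and ATXN7L3 had 3. The 3'UTR covered in CBX6 was 76.5% by the peaks of either replicate, 37.5% at a q below 0.01, and 56.6 to 64.1% in single replicates. In ATXN7L3 it was 33.8% by the peaks of either replicate and 24.6 to 27.5% in single replicates. The authors' Homer annotation put 1 ATXN7L3 interval in the 3'UTR. The mean GC of the intervals, each counted once whatever its length, was 59.4% in CBX6 and 63.7% in ATXN7L3. It was 56.3% and 57.8% at the CBX6 summits of replicates 1 and 2 and 62.3% at the ATXN7L3 summits of replicate 1. The ATXN7L3 mean includes the 27-bp interval at 74.1%, beside 59.0% and 58.0% in the others. Over all bases inside the intervals, GC was 57.6% in CBX6 and 59.6% in ATXN7L3. CBX6 ranked 1 per kb of 3'UTR and 4 in each replicate alone. Of the chromatin genes, 5 had a peak in each replicate, overlapping or not, and 6 to 9 had one in single replicates. A single replicate lists peaks without an overlap, and the cause of the other changes was not tested. With 6 to 32 reads at a summit, the counting intervals of the replicates overlapped at all 15 shared intervals.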
